A study of Mus musculus with 2 samples.

Results

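Il5 and Il13, which encode the type 2 cytokines interleukin-5 (IL-5) and interleukin-13 (IL-13), were followed by name as 2 of the 32285 genes counted in single CD4 T cells from visceral fat of mice, the fat around the abdominal organs. The cells came from the stromal vascular fraction, which is what remains of the tissue once adipocytes are removed, and were sorted for TCRb and CD4 before droplet 3′ single-cell sequencing. One library was made from wild-type mice (WT) and 1 from CD27-/- mice (CD27_KO), both entered as C57BL/6, each from pooled animals (10, although the labels leave unclear whether per pool or in all). CD27, a member of the TNF receptor family, costimulates T cells when it binds CD70. With 1 library per genotype no spread between mice could be measured and no test between genotypes was possible. The 95% intervals below are exact and cover counting error only. They take each unique molecular identifier (UMI, a tag that marks 1 captured RNA molecule) as independent, which for Il5 and Il13 makes them narrower than they should be, since a few cells supply many of the UMIs.

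IL-5 is the growth and survival factor of eosinophils, and IL-13 acts on macrophages, epithelium and stroma through a receptor that contains the IL-4 receptor alpha chain. Both are secreted by type 2 helper T cells (Th2) and by innate lymphoid cells of type 2 (ILC2), and the factor GATA3 is needed for their transcription. In fat, type 2 cytokines are known for sustaining eosinophils and alternatively activated macrophages, and IL-33, sensed through the receptor ST2 that Il1rl1 encodes, is a known inducer of both genes. IL-33 also acts on ST2-positive regulatory T cells (Treg) of this tissue.

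Both genes lie in the type 2 cytokine locus of chromosome 11 (mm10, GENCODE vM21). Il5 (ENSMUSG00000036117) occupies 53720794 to 53725106 on the plus strand in 4 exons, and Il13 (ENSMUSG00000020383) occupies 53631324 to 53634702 on the minus strand in 4 exons. A gap of 86.1 kb, filled mostly by Rad50, separates them, while the near edge of Il4, on the minus strand, lies 12.7 kb from Il13. The antisense gene Gm12214 overlaps Il5 and held 0 UMIs in WT and 1 in CD27_KO T cells. No 31-base stretch of an Il5 or Il13 transcript recurred in a transcript of another gene, so reads shared with a near-identical copy are not an issue at that length. The 250 bases before each start are shown because the genes are neighbours whose levels over clusters were much alike (RefSeq, GRCm38.p6, 5′ to 3′ along the gene's own strand). Capitals mark matches to a GATA motif (AGATAA or AGATAG, and likewise TGATAA or also TGATAG, on either strand) and the longest stretch shared by the pair, runs of 1 repeated base left out.
Il5, chr11:53720544-53720793, plus strand: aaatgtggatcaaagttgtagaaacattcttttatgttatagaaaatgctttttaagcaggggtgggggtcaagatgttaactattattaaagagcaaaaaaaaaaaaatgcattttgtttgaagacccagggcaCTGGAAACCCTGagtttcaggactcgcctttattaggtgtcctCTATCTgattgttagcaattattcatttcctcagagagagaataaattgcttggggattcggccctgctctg
Il13, chr11:53634703-53634952, minus strand: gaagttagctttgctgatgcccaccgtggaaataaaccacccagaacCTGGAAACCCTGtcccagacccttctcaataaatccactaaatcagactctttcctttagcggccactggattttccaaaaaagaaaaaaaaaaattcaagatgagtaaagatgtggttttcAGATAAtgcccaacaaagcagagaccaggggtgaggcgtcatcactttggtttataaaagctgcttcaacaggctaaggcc
Each window held 1 GATA motif, 72 to 67 bases before the start in Il5 (AGATAG, on the opposite strand) and 81 to 76 bases before it in Il13 (AGATAA). The corresponding window of Il4 also held 1 (TGATAG, 80 to 75 bases before its start). Such a motif is common, and 26.5% of 32851 promoter windows of this length held one. The shared 12-base stretch CTGGAAACCCTG lay 115 to 104 bases before the start of Il5 and 203 to 192 bases before that of Il13, and 6 of the 32851 windows held it. It was picked from these very sequences, so its rarity is a description.

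After filtering and removal of 136 WT and 65 CD27_KO cells in 3 clusters led by plasmacytoid dendritic, antigen-presenting (Cd74, Cd79a, C1qa) and stromal genes, 6202 WT and 6788 CD27_KO T cells remained, with medians of 1930.5 and 2200 UMIs per cell and 15824202 and 19784355 UMIs in all. The targeted gene Cd27 gave 2072 UMIs in the WT and 15 in the CD27_KO T cells. Cd4 itself is poorly captured, with a UMI in 25.1% of the WT and 30.6% of the CD27_KO T cells that held neither cytokine. Of all barcodes, 12 occurred in both libraries, and 2 WT cells positive for Il5 or Il13 carried one of them. A doublet caller (Scrublet) marked 0 of 6338 WT and 0 of 6853 CD27_KO cells and so has not worked here, and doublets were not removed.

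Both transcripts were rare, and over all T cells Il5 stood somewhat higher in CD27_KO while the ratio of Il13 lay within counting error. Il5 gave 199 UMIs in 80 WT cells and 368 UMIs in 142 CD27_KO cells. Il13 gave 163 UMIs in 33 WT cells and 233 UMIs in 70 CD27_KO cells. Cells with at least 1 UMI of Il5 thus made up 1.29% (interval 1.02 to 1.60) of WT and 2.09% (1.77 to 2.46) of CD27_KO T cells, and the shares for Il13 were 0.532% (0.367 to 0.746) and 1.03% (0.805 to 1.30). The CD27_KO cells were sequenced more deeply, which raises a share of positive cells by itself. After each cell was thinned to 1300 UMIs, which left out 536 WT and 54 CD27_KO T cells below that depth, Il5 was found in 0.812% of WT (0.595 to 1.08) and 0.995% of CD27_KO cells (0.772 to 1.26). The thinned shares of Il13 were 0.353% (0.216 to 0.545) and 0.520% (0.362 to 0.722). For both genes the thinned intervals overlapped, so no difference in the share of positive T cells was detectable at this depth.

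In CPM (UMIs of the gene per 1000000 UMIs of the cells), Il5 stood at 12.6 in WT and 18.6 in CD27_KO T cells, a log2 ratio of 0.56 (0.31 to 0.82). Il13 stood at 10.3 and 11.8 CPM, a log2 ratio of 0.19 (-0.10 to 0.49) that counting error spans. Neither gene reached a 1.5-fold difference, which 7.02% of 9754 genes with at least 100 UMIs reached upward and 2.86% downward. Without the 12 barcodes found in both libraries the fold of Il5 moved from 1.48 to 1.502 and so just reached that bound, and without cells over the 99th percentile of UMIs it was 1.63. The median gene was itself higher in CD27_KO by 0.17, and relative to it the log2 ratios were 0.39 for Il5 and 0.02 for Il13. The neighbour Il4 gave 175 UMIs in 126 WT cells and 1088 UMIs in 708 CD27_KO cells, a log2 ratio of 2.31 (2.08 to 2.55).

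A few cells held much of each transcript. The 5 richest WT cells held 33.2% of the Il5 UMIs and 69.9% of the Il13 UMIs of their library. The 5 richest CD27_KO cells held 36.4% and 36.5%. For 50% of the UMIs of Il5, 11 WT and 14 CD27_KO cells were enough, and for Il13 3 WT and 10 CD27_KO cells. The same needed 39 and 198 cells for Il4, 177 and 194 for Ifng, the type 1 cytokine interferon gamma, and 152 and 81 for Areg, the growth factor amphiregulin, which Treg cells of fat also make. Some other genes also needed few cells, with 3 in each library for Il17a, 8 in WT for Il6, 11 in CD27_KO for Il10 and 14 in WT for Calca. Their totals there were 32 and 54 UMIs for Il17a, 41 for Il6, 88 for Il10 and 270 for Calca. A gene with few UMIs needs few cells for 50% of them, and no WT cell held more than 4 Il6 UMIs. Calca, however, had more WT UMIs than Il5. Csf2, the gene of GM-CSF, had 1515 and 1688 UMIs and needed only 21 and 38 cells. The 5 richest cells of Il17a held 68.8% and 75.9% of its UMIs. Such concentration was thus not particular to Il5 and Il13 among these genes. At the other end many positive cells were barely so, with a single UMI in 50 of 80 and 91 of 142 cells positive for Il5 and in 19 of 33 and 35 of 70 cells positive for Il13, WT first. Il5 and Il13 therefore had a long low shoulder of cells and a short run of very rich ones.

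**Figure D1:**
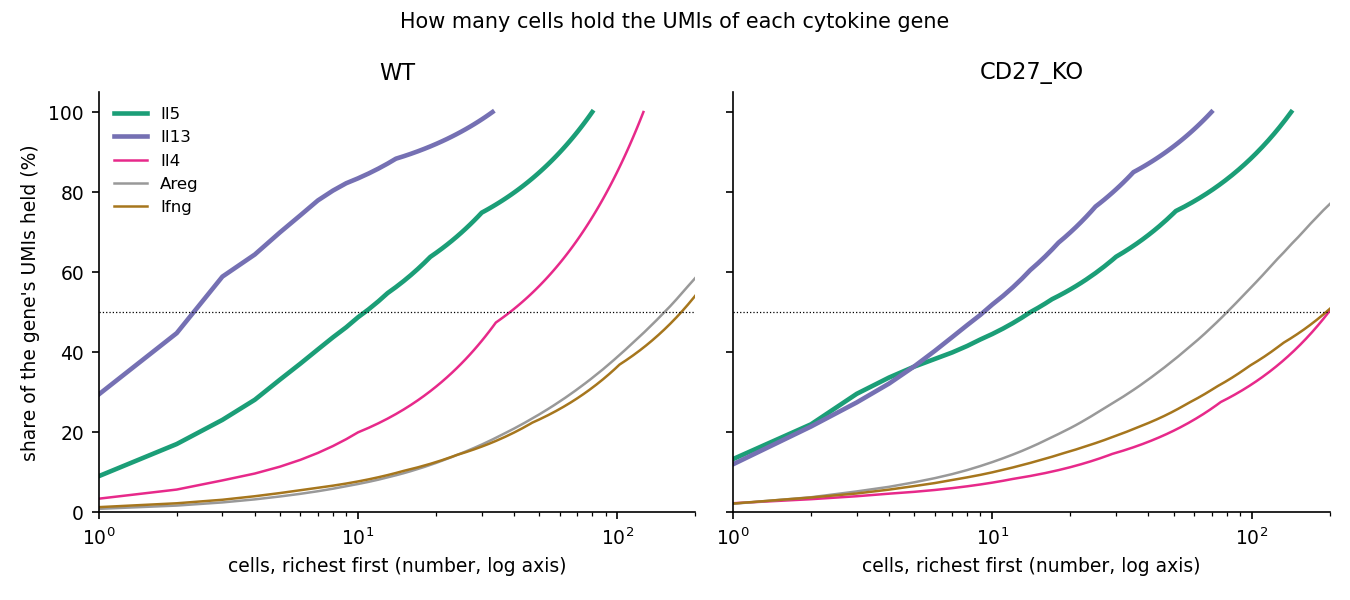
Cumulative share of each gene's UMIs (vertical axis, %) held by its richest T cells (horizontal axis, number of cells from the richest down, log axis), with 1 panel per library and a dotted line at 50%. Il13 in WT crosses the line at 3 cells and Il5 at 11, while Il4 needs 39.

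Genes of like abundance were seldom so concentrated. Among 3858 genes with an Il5-like total in WT, 7 had a larger share in their 5 richest cells (Ccl1, Ccl4, Cxcl1, Gzma, Hdc, Hist1h2ae and Penk), and among 3950 in CD27_KO, 4 did (Akr1b7, Ccl1, Ccl4 and Gzma). For Il13 none of 3670 genes in WT and 1 of 3653 in CD27_KO (Akr1b7) had one. The median gene of like total placed 5.15% and 3.36% of its UMIs in 5 cells beside Il5, and 5.88% and 4.57% beside Il13, WT first.

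The richest cells differed in kind. The richest WT cell held 18 Il5 and 48 Il13 UMIs among 24737 UMIs in all, with 162 UMIs of Csf2, the gene of the growth factor GM-CSF. It lay above the 99th percentile of UMIs of its library, and 1 UMI of Foxp3, the Treg factor, was found in it. The next WT cell held 10 Il5 and 23 Il13 UMIs among only 2423. The richest CD27_KO cell held 49 Il5 and 11 Il13 UMIs among 1577, so that the pair made up 3.80% of everything captured from that cell, with 0 UMIs of Csf2, Areg and Il4. The CD27_KO cells that followed held 28 and 22, 32 and 14, 0 and 28, and 15 and 5 UMIs of Il5 and Il13. High output was thus found both in deep cells and in cells of ordinary depth.

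These few cells moved the comparison of Il13 between the genotypes. Without the 5 richest cells of the gene in each library, Il13 fell to 3.10 CPM in WT and 7.50 in CD27_KO, and the log2 ratio rose from 0.19 to 1.27 (0.80 to 1.77). The ratio of Il5 stayed close, at 0.49 (0.18 to 0.81).

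Across T cell states, both transcripts were concentrated in the Th2-like cells. States were obtained by clustering both libraries together with Il4, Il5, Il13 and Cd27 left out of the genes used, so neither cytokine was used to form them. Clusters were named from marker lists that hold neither gene. The Th2-like state joined cluster 8, led by Calca, Tnfsf11 and Rnf128 and with Il4 and Il5 themselves among its 10 leading genes, and cluster 9, led by Ccl1 and Hdc, whose cells were deeper, with medians of 6017 and 6779 UMIs against 2248.5 and 2499 in cluster 8, WT first. It held 5.93% of WT and 22.3% of CD27_KO T cells. Within it lay 81.4% of the WT and 85.9% of the CD27_KO Il5 UMIs, and 92.0% and 86.3% of the Il13 UMIs. The WT share of Il13 depended on the clustering, and was 58.3% at resolution 0.5 and 57.1% at resolution 2. Each transcript was found in 0 of 1308 WT and 0 of 315 CD27_KO naive-like cells, at median depths of 1860.5 and 2075 UMIs, which allows shares of up to 0.229% and 0.952%. Naive T cells should lack both transcripts, so these limits serve as the background for free RNA.

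**Figure D2:**
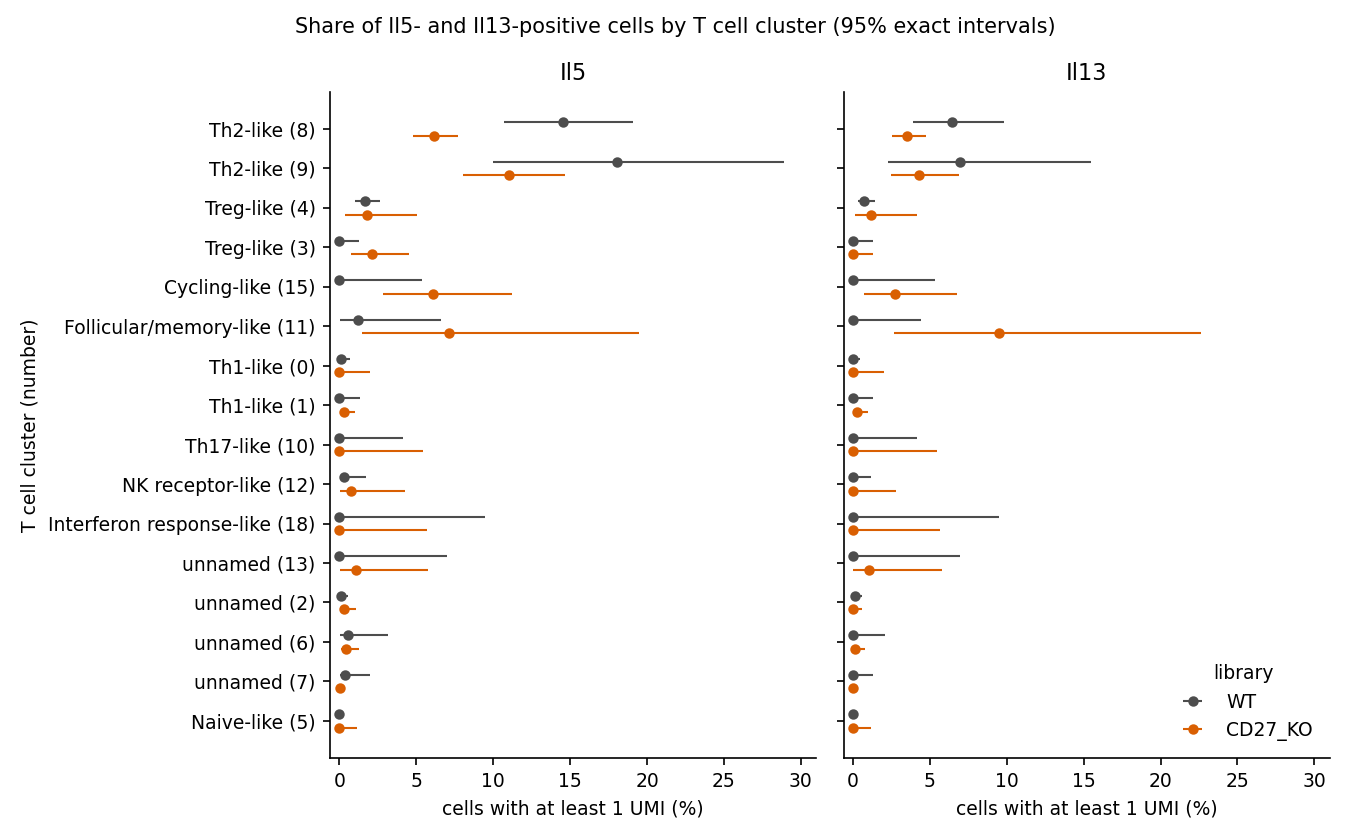
Share of cells with at least 1 UMI of Il5 (left) and Il13 (right) on the horizontal axis, in %, for each of the 16 T cell clusters on the vertical axis, WT in grey and CD27_KO in orange, with 95% exact intervals. The Th2-like clusters 8 and 9 stand highest for Il5 in WT, at 14.5% and 18.1%, and the small cluster 11 reaches 7.14% for Il5 and 9.52% for Il13 in CD27_KO.

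In WT, 15.2% of Th2-like cells (11.7 to 19.3) held Il5 and 6.52% (4.22 to 9.55) held Il13. In the larger CD27_KO Th2-like state these shares were 7.33% (6.07 to 8.76) and 3.70% (2.81 to 4.78). By level, Il5 stood at 128 CPM (109 to 149) in WT and 52.6 (47.0 to 58.8) in CD27_KO, a log2 ratio of -1.28 (-1.56 to -0.997). Il13 stood at 118 CPM (100 to 139) and 33.5 (29.0 to 38.4), a log2 ratio of -1.82 (-2.13 to -1.51). Both members were at least 1.5-fold lower, as were 1.66% of the 6451 genes measured in this state, and 6.63% were at least 1.5-fold higher. Il4 was among the higher ones, at 74.1 CPM in WT and 119 in CD27_KO with a log2 ratio of 0.68 (0.37 to 1.01). In the Th2-like state Il4 thus differed in the opposite direction to Il5 and Il13.

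At equal depth the shares were also lower in CD27_KO, at 10.3% (7.34 to 13.9) and 3.51% (2.64 to 4.57) for Il5 and 4.72% (2.78 to 7.45) and 2.19% (1.51 to 3.06) for Il13. The lower level of Il5 was found in cluster 8, where it stood at 164 and 59.1 CPM, and in cluster 9, where it stood at 75.3 and 45.7 CPM. A single WT cell held 18 of the 39 WT Il5 UMIs of cluster 9, so the WT level there rests largely on that cell. In cluster 9 the thinned shares with Il5 were alike, at 2.78% (0.338 to 9.68) and 2.69% (1.30 to 4.89). Without the 5 richest cells per library the log2 ratio of Il5 was -1.36 and that of Il13 was -0.59 (-1.14 to -0.01). The size of the difference in Il13 therefore depended on 5 cells per library.

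The comparison also depended on how the Th2 cells were delimited. A gate of cells with a UMI of Il1rl1 and Gata3 and none of Foxp3 held 581 WT and 1318 CD27_KO cells. In it Il5 was found in 7.06% (5.11 to 9.45) and 7.36% (6.01 to 8.90), at 53.3 and 51.0 CPM, with a log2 ratio of -0.06 (-0.38 to 0.26). Il13 was found in 2.75% and 3.64% at 41.9 and 30.6 CPM, with a log2 ratio of -0.45 (-0.83 to -0.07). The gate was not made of the same cells in both libraries. Of its WT cells, 324 (55.8%) lay in the Treg-like clusters, against 33 (2.50%) of its CD27_KO cells, and only 4 of those 324 held Il5 and 1 held Il13. With the Treg-like clusters taken out, a step chosen after seeing the data, Il5 was found in 14.4% of 257 WT and 7.55% of 1285 CD27_KO gate cells. The log2 ratios were -1.25 (-1.57 to -0.92) for Il5 and -1.68 (-2.06 to -1.30) for Il13. Of these cells 193 WT and 1037 CD27_KO cells lay in the Th2-like clusters, so this step is no independent check of them. In gate cells of the other clusters, 2 of 64 WT and 14 of 248 CD27_KO cells held Il5. The log2 ratio of Il5 there was 1.42 (-0.59 to 4.54). A cell without a Foxp3 UMI can still be a Treg at this depth.

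With each cluster given the same share of both libraries, the log2 ratio over all T cells turned to -0.83 for Il5 and -1.44 for Il13. The direction over all T cells thus depended on the share of each cluster, and the Th2-like share was larger in CD27_KO.

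**Figure D3:**
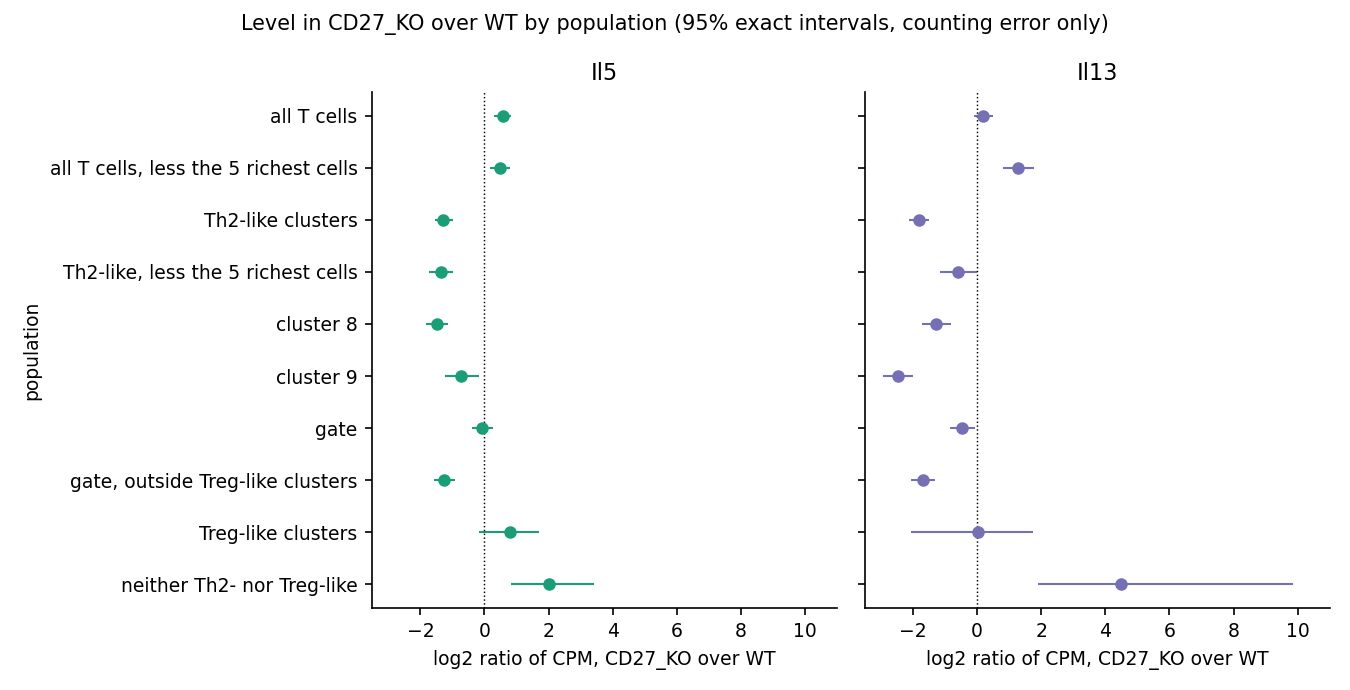
Log2 ratio of CPM, CD27_KO over WT (horizontal axis), of Il5 (left, green) and Il13 (right, purple) in 10 populations on the vertical axis, with 95% exact intervals that cover counting error only and a dotted line at equal levels. The gate is Il1rl1 and Gata3 with no Foxp3 UMI. Th2-like clusters lie left of the line at -1.28 and -1.82. Cells that are neither Th2- nor Treg-like lie right of it at 2.01 and 4.50, from 7 and 1 WT UMIs. They pool clusters with unlike shares in the 2 libraries.

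Outside the Th2-like state both genes were scarce. Treg-like cells, whose clusters both have Foxp3 and Ikzf2 among their leading genes, held 30 Il5 UMIs in 18 of 1361 WT cells and 17 UMIs in 9 of 457 CD27_KO cells, shares of 1.32% (0.786 to 2.08) and 1.97% (0.904 to 3.71). Il13 was found in 8 and 2 of these cells. All WT positives of this kind lay in cluster 4, whose leading genes include Areg and Il10, and none of 286 WT cells of the other Treg-like cluster held either gene. A direct gate on Foxp3 and Il1rl1, taken over all clusters, gave more, with Il5 in 15 of 392 WT cells (3.83%, 2.16 to 6.23) and in 16 of 159 CD27_KO cells (10.1%, 5.86 to 15.8). Thinned to equal depth those shares were 1.33% and 1.26%. Of these positive cells 3 WT and 10 CD27_KO cells lay in the Th2-like clusters, and within the Treg-like clusters the gate held Il5 in 11 of 358 (3.07%) and 5 of 96 (5.21%) cells. The level of Il5 in that gate was 23.5 and 24.0 CPM. The richest WT cell falls in this gate through its single Foxp3 UMI and alone holds 18 of the gate's 46 WT Il5 UMIs and 48 of its 51 Il13 UMIs.

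In cells that were neither Th2- nor Treg-like, Il5 gave 7 UMIs in 6 of 4473 WT cells and 35 UMIs in 22 of 4817 CD27_KO cells, a log2 ratio of 2.01 (0.82 to 3.43). Il13 gave 1 and 28 UMIs, the latter in 12 cells, with a log2 ratio of 4.50 (1.90 to 9.85). The direction of these pooled ratios was opposite to that in the Th2-like state. The clusters pooled here had unlike shares in the 2 libraries, with 1308 WT and 315 CD27_KO naive-like cells. Pooled clusters with at least 50 cells and Il5 in each library differed. Their log2 ratios of Il5 were 2.17 in cluster 2, -0.01 in cluster 6, -2.86 in cluster 7 and -0.05 in cluster 12. Each rests on no more than 5 UMIs per library, and the part of the cluster mix was not tested. Cycling-like cells, marked by Mki67 and Top2a, held Il5 in 9 of 148 CD27_KO cells (6.08%) and 0 of 67 WT cells, which allows up to 4.48%. The thinned CD27_KO share was 2.04% (0.423 to 5.85). Cluster 11, named follicular helper or memory-like and led by Ccl1, Sostdc1 and Spp1, held 14 Il13 UMIs in 4 of its 42 CD27_KO cells and none in 82 WT cells. Th1-like cells held Il5 in 1 of 1121 WT and 2 of 917 CD27_KO cells, and Th17-like cells held neither gene in 87 and 66 cells. In all, Il5 was found in 9 WT and 12 CD27_KO clusters of 16, and Il13 in 4 and 8. Several of these clusters held a single UMI of the gene. For Il5 they were clusters 0, 2, 6, 7 and 11 in WT and 7 and 12 in CD27_KO. For Il13 they were cluster 2 in WT and cluster 6 in CD27_KO. The counts are therefore no measure of how widely either gene was expressed.

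Il5 and Il13 were found in the same cells more often than the product of their shares gives, but most positive cells held only 1 of them. In WT, 11 cells held both, where the product of the shares corresponds to 0.426 cells, and in CD27_KO 23 cells did, against 1.46. Of the cells positive for Il13, 33.3% of WT (17.96 to 51.8) and 32.9% of CD27_KO (22.1 to 45.1) also held Il5. Conversely 13.8% (7.07 to 23.3) and 16.2% (10.6 to 23.3) of the cells positive for Il5 held Il13. A single UMI marks many of these cells, so a gene not found in a cell may have been missed. The product of shares takes no account of depth. In CD27_KO, cells with both had a median of 4933 UMIs, against 3955 with Il5 alone and 3321 with Il13 alone. The WT medians were 3006, 3234 and 2844.5. Thinned to 1300 UMIs, 25% of WT and 20% of CD27_KO cells with Il13 also held Il5.

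Within the Th2-like state, which holds most UMIs of both genes, 10 WT cells held both against a product of 3.65, and 18 CD27_KO cells against 4.11. Il13 was thus found in 17.9% of Il5-positive and 4.49% of Il5-negative Th2-like cells of WT, and in 16.2% and 2.71% of CD27_KO. Over all T cells, to which the values below refer, the 11 WT and 23 CD27_KO cells with both were richer by their means. In WT they held 4.18 Il5 and 10.5 Il13 UMIs per cell, against 2.22 and 2.14 in cells with 1 of the genes. In CD27_KO they held 7.26 and 4.43, against 1.69 and 2.79. Few cells carried these means. Of the WT cells with both, 3 held 96 of the 116 Il13 UMIs, and the median cell with both held 2 UMIs of each gene, against 1 in cells with 1 gene. The CD27_KO medians were 2 Il5 and 3 Il13 UMIs, against 1 and 1. Cells with both accounted for 71.2% of the WT and 43.8% of the CD27_KO Il13 UMIs, and for 23.1% and 45.4% of the Il5 UMIs.

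**Figure D4:**
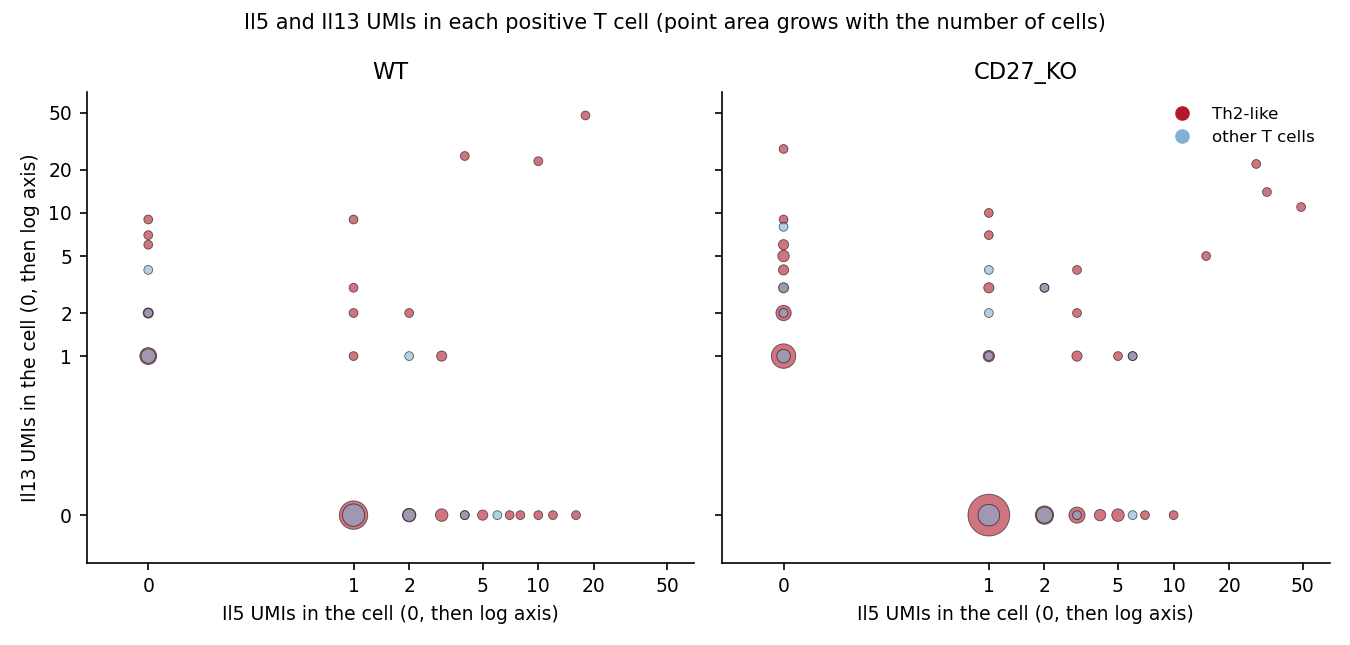
UMIs of Il5 (horizontal axis) and of Il13 (vertical axis) in each T cell with at least 1 of either, both axes with 0 and then a log scale, 1 panel per library, Th2-like cells in red, others in blue, point area growing with the number of cells. Most cells sit on an axis at 1 UMI, and the richest cells, such as the WT cell with 18 and 48, lie to the upper right.

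Il4 joined the pair only in part. Of the WT T cells with a UMI of any of the 3 cytokines, 59 held Il5 alone, 18 Il13 alone and 107 Il4 alone, and 5 held all 3. The CD27_KO counts were 91, 28 and 651, with 10 cells holding all 3. Within the Th2-like state Il4 was found in 21.4% of Il5-positive and 14.1% of Il5-negative WT cells. In CD27_KO these shares were 27.9% and 28.4%. The near-equal CD27_KO values joined opposite ones, since Il4 was found in 15.7% of Il5-positive and 27.9% of Il5-negative cells of cluster 8 and in 48.8% and 29.9% of cluster 9. For Il13 the shares of positive and negative Th2-like cells with Il4 were 33.3% and 13.9% in WT and 44.6% and 27.7% in CD27_KO. Of the 708 CD27_KO cells with Il4, 651 held neither Il5 nor Il13.

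The 102 WT and 189 CD27_KO T cells positive for Il5 or Il13 held T cell transcripts. Each had a UMI of a Cd3 chain or a T cell receptor constant gene, and 98 and 183 held at least 3 of the 6 such genes. Clusters of other cells had been removed before, and 6084 of 6100 WT and 6590 of 6599 CD27_KO other T cells had such a UMI. Of those other T cells, 5651 and 6206 held at least 3 of the genes. They were deeper than other T cells, with medians of 3017 and 3921 UMIs against 1919 and 2175, and a deep cell is more likely to yield a UMI of any rare gene. Gata3 was found in 75.5% of WT and 86.2% of CD27_KO positive cells, against 28.8% and 43.0% of the others. Il1rl1 was found in 83.3% and 87.3%, against 20.4% and 26.2%. Foxp3 was found in 17.6% and 11.6%, against 9.67% and 4.47%. All 3 genes were thus more frequent in the positive cells, which were also deeper. By level, Foxp3 stood at 72.5 CPM in positive and 56.9 in other WT T cells, and at 48.2 and 26.7 in CD27_KO. Gata3 stood at 615 and 227 in WT and 707 and 348 in CD27_KO, and Il1rl1 at 776 and 229 and at 873 and 305. Within the Th2-like state Foxp3 was found in 4.29% of positive and 7.72% of other WT cells, and in 8.72% and 3.52% of CD27_KO cells.

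Markers of other cells known to make these cytokines were also counted. Of 9 markers of mast cells, basophils and eosinophils, 0 were detected in the positive WT cells and 1, Cpa3 with 1 UMI, in the positive CD27_KO cells. Of 9 genes listed for ILC2, 6 and 8 were detected, and their summed level was 903 and 304 CPM in positive cells against 47.0 and 79.7 in other T cells. Most of those UMIs were Calca, with 98 and 145, and Ccl1, with 268 and 61, while Il17rb had 0 and 3, Kit 1 and 3, Nmur1 0 and 1, and Rxrg 0 in both. Arg1, an enzyme of arginine breakdown, had 2 and 47 UMIs, or 4.40 and 49.3 CPM against 1.82 and 5.84 in other T cells. Hs3st1 had 3 and 6 UMIs, or 6.59 and 6.29 CPM against 0.195 and 0.584. Cd81 had 39 and 24 UMIs, or 85.7 and 25.2 CPM against 25.3 and 12.1. Kit was also higher per UMI in the positive cells of both libraries, though from only 1 and 3 UMIs. In WT, Il17rb and Nmur1 went the other way, with UMIs in other T cells only. Calca is also in the list of Th2 markers. When cluster 9 was named, Th2 came first with 8 of 13 markers enriched, and ILC2 came second with 3. The part of such cells in the result was not tested.

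Within the Th2-like state, the cells positive for Il5 or Il13 differed from the rest in few genes. Among the 10836 genes that gave 50 UMIs or more, 5 (0.0461%) reached a 2-fold higher level in both libraries and 2 (0.0185%) at least 2-fold lower. Ratios here are log2 of CPM with 10 added to each level, and they are a description of 70 WT and 149 CD27_KO positive cells against 298 and 1365 others. The higher ones were Cxcl2, Csf2, Ly6c2, Igfbp7 and the gene model Gm6093, and the lower ones Ccl4 and Ly6c1. Gm6093, Ccl4 and Ly6c1 fall outside the rule for named genes and were chosen after their values were seen. At 2-fold in both libraries over all T cells, where the state itself enters, 0.471% of genes were higher and 0.0923% lower.

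Csf2 was found in 42.9% of positive and 25.2% of other Th2-like cells of WT, at 1856 and 498 CPM, and in 30.2% and 12.9% of CD27_KO, at 406 and 176 CPM. Its log2 ratio was 1.88 in WT and 1.16 in CD27_KO. Cxcl2, a chemokine for neutrophils, stood at 2669 and 752 CPM in WT and at 716 and 267 CPM in CD27_KO, ratios of 1.81 and 1.39. Areg stood at 1219 and 621 CPM in WT and 898 and 313 in CD27_KO, ratios of 0.96 and 1.49. A single WT cell held 162 of the 504 Csf2 UMIs, and without the 5 richest cells per library the Csf2 ratios were 1.10 and 0.97 and those of Cxcl2 1.39 and 1.11.

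Furin, a protease that cleaves precursors of secreted proteins, was found in 88.6% of positive and 62.4% of other WT Th2-like cells and in 82.6% and 54.1% of CD27_KO, with ratios of 0.98 and 1.03. Igfbp7, which encodes a secreted binding protein, had ratios of 1.40 and 1.01, and Ly6c2, a surface protein, 1.16 and 1.09. Hdc, the enzyme that makes histamine, had ratios of 2.43 and 0.76, and of 1.66 and 0.82 without the 5 richest cells. The rest of the 10 genes chosen by the lower of their 2 ratios were Hlf, Ndrg1 and Zeb2, with lower ratios of 0.77, 0.75 and 0.74. Because positive cells are deeper, each gene's level is compared here per UMI of the cell, but shares of cells with a gene are not.

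**Figure D5:**
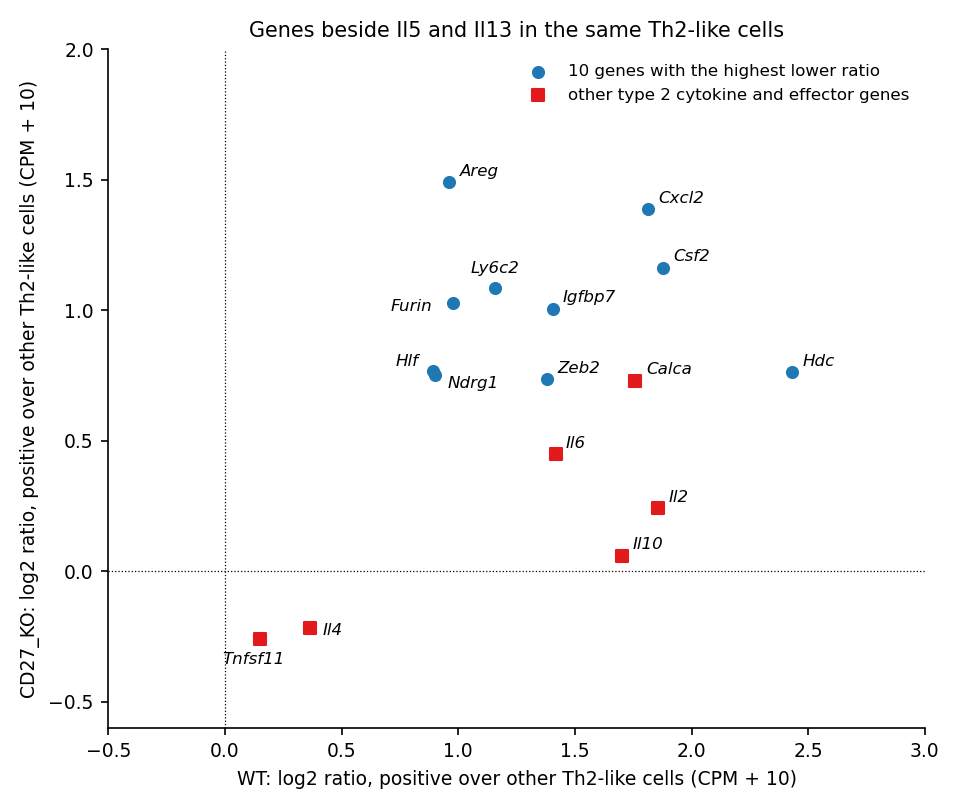
Log2 ratio of CPM (10 CPM added) in Il5- or Il13-positive over other Th2-like cells, WT on the horizontal and CD27_KO on the vertical axis, for the 10 genes named by rule (blue circles) and other measured type 2 cytokine and effector genes (red squares). Il21, which was also measured, is not drawn. Csf2, Cxcl2 and Areg lie high in both libraries, whereas Il4 and Tnfsf11 lie near 0.

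The genes were then read by list. Of 12 type 2 cytokine and effector genes, 9 were measured, with medians of 1.42 in WT and 0.24 in CD27_KO against -0.03 and 0.02 over all genes, and 1, Csf2, was at least 2-fold higher in both. Calca, which encodes the neuropeptide CGRP, had ratios of 1.76 and 0.73, Il2 1.86 and 0.24, Il4 0.37 and -0.22, and Tnfsf11, the ligand RANKL, 0.15 and -0.26. Of 19 measured type 2 regulators, 0 were 2-fold higher or lower in both libraries, with medians of 0.03 and 0.17. Gata3 had ratios of 0.24 and 0.14, and Bhlhe40, a factor that supports cytokine output of T cells, 0.32 and 0.63. Most regulators were thus at like levels in positive and other Th2-like cells.

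The remaining lists held few or no such genes. Of 18 measured receptors for inducing signals 0 passed in both, with Il1rl1 at 0.21 and 0.15, Il2ra, the high-affinity IL-2 receptor chain, at 0.72 and 0.68, and Ramp1, part of the CGRP receptor, at 0.22 and 0.82. Of 8 measured receptor and signalling genes of IL-4, IL-5 and IL-13, 0 passed. Il5ra, Csf2rb and Il13ra1 were too low to measure, and Il4ra had ratios of -0.01 and 0.05. Of 14 genes of recent activation 0 passed, with medians of 0.35 and 0.23. Nr4a2 had ratios of 0.73 and 0.60 and Egr3 1.02 and 0.69, while Egr1 had -0.49 and -0.28. Of 10 T cell identity genes 0 passed, with medians of 0.13 and 0.01. Of 8 measured genes of the locus and its neighbours Csf2 alone passed, and Rad50, whose body lies between Il13 and Il5, had ratios of 0.48 and 0.51.

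Between the genotypes, the same lists held both higher and lower genes over all T cells, to be read against the 7.02% of all genes that were 1.5-fold higher and the 2.86% that were lower. Of 8 other type 2 cytokine and effector genes with enough UMIs, 5 stood 1.5-fold or more above WT in CD27_KO (Il4, Il6, Il2, Calca and Tnfsf11) and 2 lower (Areg and Il10), with a median log2 ratio of 0.92 against 0.17 over all genes. Calca stood at 17.1 CPM in WT and 40.5 in CD27_KO, and Tnfsf11 at 65.2 and 168. Areg stood at 473 and 180 and Csf2 at 95.7 and 85.3. Of 18 regulators 4 were higher (Gata3, Bhlhe40, Gfi1 and Pparg) and 2 lower (Irf4 and Bach2). Among the inducing receptors, Il1rl1 stood at 244 CPM in WT and 333 in CD27_KO. Of the signalling genes 2 of 8 were higher (Socs2 and Cish) and 1 lower (Socs3), of the locus genes 3 of 8 were higher (Il4, Kif3a and Sept8) and 1 lower (Pdlim4), of 13 activation genes 2 were higher (Egr1 and Cd40lg) and 2 lower (Tnfrsf4 and Tnfrsf9), and of 10 identity genes 0 passed either bound.

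Across the 14 clusters with at least 50 cells in each library, taken as 28 points of cluster and library, the level of Il5 was most like that of Il13, with a Pearson r of 0.94 over 9732 genes compared. The points share libraries and differ in depth, and levels were taken as log2 of CPM with 10 added. Outside clusters 8 and 9 most points lay below 10 CPM for both genes. The r thus rests mainly on clusters 8 and 9 and is given as a description. Slc7a8, an amino acid transporter, Rnf128, a ubiquitin ligase of T cells, Calca and the laminin chain Lama5 followed for Il5, at 0.93, 0.93, 0.92 and 0.91. For Il13 they were Ccl1 at 0.91, Hdc at 0.90, Lama5 at 0.90 and Csgalnact1 at 0.89. Il4 had rank 104 for Il5 at 0.70 and rank 109 for Il13 at 0.65, behind Il1rl1 at 0.78 and 0.68.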

How the data were processed

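Droplet 3′ single-cell RNA was measured in 1 WT and 1 CD27_KO library. The authors deposited raw UMI counts per gene and barcode, made with Cell Ranger 6.1.1 on mm10, per the file headers and the submitters' processing notes. From these counts, barcodes with 500 genes or more and no more than 10% of UMIs from mitochondrial genes were clustered together with scanpy 1.11.5 (2000 variable genes, 30 components, 20 neighbours, Leiden resolution 1). Clusters were named from marker lists by a rule set after the clusters were seen, so a difference from the study's own cell types may come from these names. Scrublet scores were computed and no cell was removed as a doublet.

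Shares have exact Clopper-Pearson intervals, levels exact Poisson intervals and ratios conditional binomial intervals at 95% (scipy 1.17.1), and a count of 0 is given the limit of 3 counts. The UMIs of 16628623 and 20191704 per library limit what can be seen of rare genes. No test between genotypes was made. The comparison of all genes used those with at least 100 UMIs, and the procedure was checked on simulated data. Named genes were Il5 and Il13, the 5 genes with the highest r for each, and the 10 genes highest in positive against other Th2-like cells by the lower of both libraries, among genes found in at least 10% of positive cells. Gene lists covered type 2 cytokines, regulators, inducing receptors, signalling, the locus, recent activation and T cell identity. The members and lists were chosen with earlier results of these data known. Alternatives varied thinning, filters, resolution, clustering genes, gates, pseudocount and the richest cells. The count of inducing receptors that differed between the genotypes is not reported here.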

Additional observations from a re-analysis of the deposited data

Results flagged for a closer look

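Il5 was also found in a cluster left out of the T cells. The plasmacytoid dendritic cluster, which no comparison used, held 10 Il5 UMIs in 5 of 55 WT cells and 5 UMIs in 2 of 27 CD27_KO cells, against none in the naive-like cells. All of these cells also held UMIs of Cd3 genes, Siglech and Il1rl1, and their median depths were 14306 and 18058 UMIs against 5489 and 4794 in the cluster. Of all cells of the cluster, 40 WT and 13 CD27_KO cells held Cd3 UMIs and 25 and 6 held Il1rl1.

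The log2 ratio of CD27_KO over WT had opposite signs in the Th2-like cells and in the cells that were neither Th2- nor Treg-like. It was -1.28 and 2.01 for Il5, and -1.82 and 4.50 for Il13. The values of 2.01 and 4.50 rest on 7 and 1 WT UMIs, against 35 and 28 in CD27_KO. They pool clusters whose shares differ between the libraries. With 1 library per genotype the difference in sign was not tested.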

How the results depend on the processing

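Of 112 alternative values, 62 stayed within the counting error or 1.5 times of the reported one, and the others moved further. The sign changed in 3, all for levels over all T cells. With clusters given equal shares in both libraries, the log2 ratio over all T cells was -0.83 for Il5 and -1.44 for Il13. That of Il13 was -0.038 under a stricter cell filter (1000 genes, 5% mitochondrial), 0.52 as a mean over cells, 1.27 without its 5 richest cells and 0.53 without cells over the 99th percentile of UMIs. The share of T cells with Il5 was 1.29% in WT and 2.09% in CD27_KO unthinned, 0.551% and 0.754% at 1000 UMIs, 1.33% and 1.84% at 2000 UMIs, and 0.484% and 0.751% for cells with at least 2 UMIs. The share with Il13 was 0.752% and 1.02% at 2000 UMIs, and 1.03% in CD27_KO unthinned. Per 10000 UMIs of each cell, the 5 richest WT cells held 60.4% of Il13. After thinning, 20% of CD27_KO cells with Il13 held Il5.

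The Th2-like share of WT UMIs was 70.9% for Il5 and 58.3% for Il13 at resolution 0.5, 69.3% and 57.1% at resolution 2, and 87.4% for Il5 with only Cd27 left out of the clustering genes. The gate on Gata3 and Il1rl1 without Foxp3 held 58.8% and 56.4% in WT and 76.1% and 72.1% in CD27_KO. The share of Th2-like cells with Il5 was 10.3% and 3.51% thinned, 10.2% and 5.23% at resolution 0.5, and 7.06% in the WT gate. That with Il13 was 2.19% in CD27_KO thinned, 3.97% and 2.73% at resolution 0.5, and 2.75% in the WT gate. Within the Th2-like state the log2 ratio of Il5 was -0.062 in the gate and -0.72 in cluster 9. That of Il13 was -1.23 and -1.24 at resolutions 0.5 and 2, -0.45 in the gate, -0.59 without its 5 richest cells, -1.27 in cluster 8 and -2.46 in cluster 9. In cluster 9 a single WT cell held 18 of the 39 WT Il5 UMIs and 48 of the 81 WT Il13 UMIs. At 2-fold, 139 genes were higher and 130 lower in CD27_KO, and with a minimum of 20 UMIs 1280 and 722 were, against 685 and 279. Genes higher beside the pair numbered 2 with 50 CPM added and 3 without the 5 richest cells. The cause of these shifts was not tested. The clusters 8 and 9, the thinned Th2-like shares, the 99th percentile, the shared barcodes and the gate outside Treg-like clusters were chosen after seeing the data. No paired analysis was possible because each genotype has 1 library, and no library could be left out for the same reason.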
